A study of Homo sapiens with 6 samples.

Results

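Of 49 genes of DNA damage signalling and repair, 38 had a named array feature in SUM159 cells, and their expression after decitabine is described here against untreated cells. SUM159 is a long-used human cell line from a triple-negative carcinoma of the breast. Decitabine resembles deoxycytidine, enters DNA during replication and holds DNA methyltransferases on it as covalent DNA-protein adducts. The 49 genes were listed by name for their known roles, with no threshold on their values. They and the other gene lists below were chosen with earlier results of these data known. A gene entered when the platform annotation gave its symbol for a feature, and where a gene had several features, the one brightest on average across the 6 arrays stood for it. ATM, H2AX, RNF8, RNF168, RBBP8, BRCA1, BRCA2, FANCD2, FANCI, HELQ and SMARCAL1 lacked a named feature and were not analysed here.

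Total RNA was measured on 6 single-colour arrays, 3 of cells given 1 µM decitabine for 72 h with the medium renewed each day, and 3 of cells kept in control medium for 72 h. All cells grew in the same serum-containing medium with insulin and hydrocortisone. Control titles also include this dose, although their other labels give untreated medium. Whether the control medium contained solvent is not stated, and in the treatment protocol the drug's name is a deoxy form of azacytidine. No label states that replicates came from separate cultures, and the p-values therefore reflect the spread between these samples alone, which may be technical.

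Cells answer DNA damage through sensor kinases such as ATM and ATR, which act through the checkpoint kinases CHEK2 and CHEK1 to hold the cell cycle. Proteins that bind modified chromatin then gather at the break, its ends are cut back, and homologous recombination copies the lost sequence from the sister chromatid, mainly in S and G2 phase. Crosslinks, damaged bases, mispaired bases and single-strand breaks are handled by separate pathways that share some of these proteins. Many of these genes are transcribed most in dividing cells, before and during DNA replication.

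Values were read as log2 expression, and each change is decitabine minus untreated on the log2 scale. The groups were compared by limma over all 14884 named genes with the replicate number in the sample titles as a block, and "rose" and "fell" below mean a Benjamini-Hochberg adjusted p under 0.05. Both arrays of replicate 1 had higher medians over all features (2.98 for decitabine and 3.03 for untreated) than the other arrays (2.37 and 2.40 for decitabine, 2.29 and 2.42 for untreated). Of 9 measured markers of the line and of breast lineages, fibronectin (FN1) averaged 10.94 ± 0.18 after decitabine and 10.75 ± 0.31 in untreated cells (SD, n = 3 each), and vimentin (VIM) 8.81 ± 0.16 after decitabine and 9.36 ± 0.29 in untreated cells. The oestrogen receptor gene ESR1 averaged 1.86 ± 0.43 after decitabine and 2.03 ± 0.35 in untreated cells. The receptor kinase AXL fell (-1.79), and the epithelial markers KRT5 (1.75) and EPCAM (1.10) rose, from low untreated means of 2.57 and 2.94. The brighter epithelial marker KRT18 did not pass (0.19, limma adjusted p = 0.429), nor did CD44 (0.27, adjusted p = 0.214) or PGR (0.28, adjusted p = 0.335). Of 5 measured markers of leukocytes, endothelium, liver and glia, CD14 alone passed the test, with a rise of 0.72 (SE 0.14, limma adjusted p = 0.0247). Without the block AXL and KRT5 still passed, while the adjusted p was 0.127 for EPCAM and 0.115 for CD14. The summed level of these 5 markers was 12.32 to 14.94 in decitabine arrays and 11.35 to 14.98 in untreated arrays, and their part in the results below was not tested.

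Decitabine raised 11 of the 38 repair genes and lowered 3, while 24 did not pass the test. The rises were UNG, UBE2T, MSH6, DCLRE1B, BRIP1, RAD54L, PARP1, RAD51AP1, EXO1, GEN1 and RAD51C, and the falls RAD52, XRCC1 and PALB2. Over all 14884 genes, 7.79% rose and 5.37% fell, against 28.9% and 7.89% of the repair genes, so the share that fell was near the background. The median change of the 38 genes was 0.13, and it was 0.19, 0.10 and 0.21 in the 3 same-numbered pairs, against a median of -0.02 over all genes. Repair genes sat on brighter features than most (median 6.72 against 3.57 over all genes), and brightness also depends on a feature's probes. Among the brighter 50% of genes alone, 17.6% rose and 15.2% fell, against 14 (37.8%) and 6 (16.2%) of the 37 repair genes in it. Without the replicate block, 2 repair genes rose (UNG and UBE2T) and none fell, against 2.01% and 1.02% of all genes, and 15 of the 38 had an unadjusted limma p under 0.05.

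**Figure D1:**
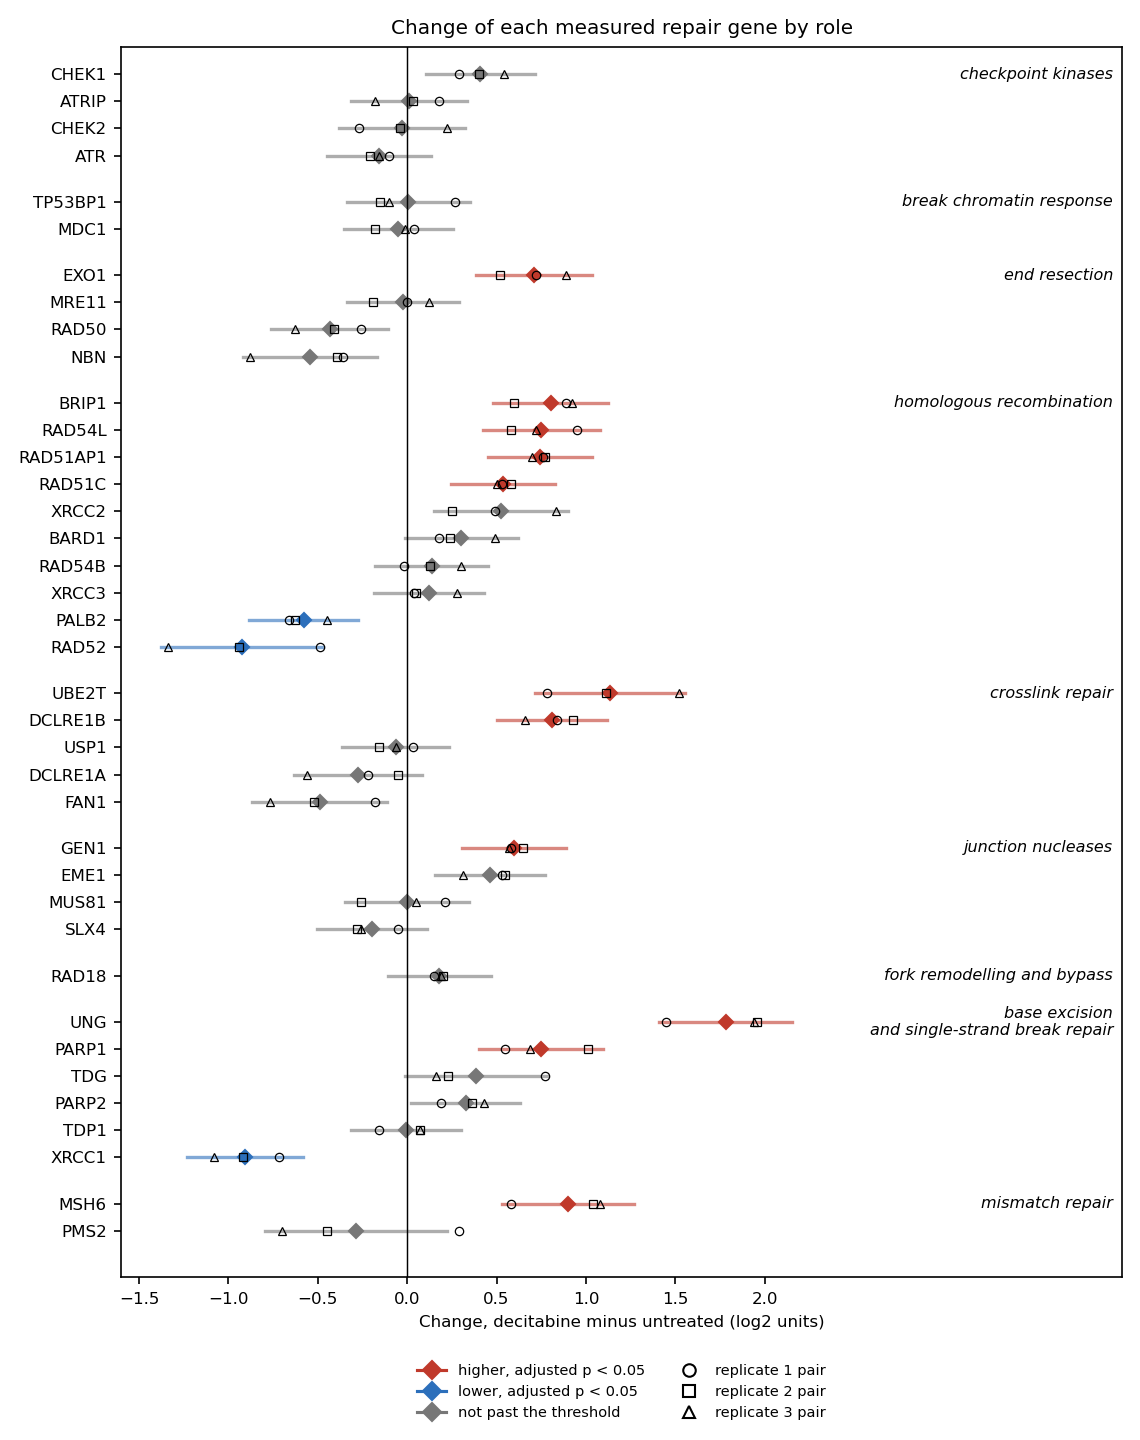
The change of each of the 38 measured repair genes on the log2 scale, decitabine minus untreated, grouped by role, with diamonds for the fitted change, bars for its 95% interval and open symbols for the 3 same-numbered pairs. UNG lies farthest to the right at 1.78, the 11 genes that rose lie between 0.54 and 1.78, and the 3 that fell lie between -0.92 and -0.58.

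The changes were mostly small. UNG and UBE2T rose at least 2-fold, as 3.22% of all genes did, and none of the 38 fell that far, as 1.53% of all genes did. All 3 pairs were higher for 19 of the 38 repair genes and lower for 9, against 22.9% and 21.8% of all genes. The share lower in all pairs was thus near the background. The 14 that passed had all pairs in the same direction. Decitabine and untreated values did not overlap for 15 repair genes that were higher and 6 that were lower after decitabine, against 11.3% and 8.74% of all genes. RAD51AP1 was the gene that passed with overlapping groups.

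Genes for the repair of damaged bases held both the largest rise and one of the falls. UNG (Entrez Gene 7374), the glycosylase that cuts uracil out of DNA, read 6.80, 7.07 and 7.31 after decitabine, against 5.35, 5.11 and 5.37 in untreated cells. All 3 decitabine values lay above every untreated one, by well over the spread within either group. The change was 1.78 (SE 0.15), a 3.44-fold rise (limma adjusted p = 0.00256, and 0.00576 without the block). TDG (6996), which removes mispaired thymine and the oxidised cytosines of active demethylation, changed by 0.39 (SE 0.16, adjusted p = 0.187), with pairs at 0.77, 0.23 and 0.16.

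PARP1 (142) and XRCC1 (7515) act in sequence at single-strand breaks, since PARP1 senses the break and makes the poly(ADP-ribose) that recruits XRCC1, a scaffold for the enzymes that close it. PARP1 read 7.65, 7.93 and 7.84 after decitabine, against 7.10, 6.92 and 7.15 in untreated cells, a rise of 0.75 (SE 0.14, limma adjusted p = 0.0242). XRCC1 read 6.11, 6.51 and 6.78 after decitabine, against 6.83, 7.43 and 7.86 in untreated cells, a change of -0.91 (SE 0.13, adjusted p = 0.0114). XRCC1 spread widely within each group, yet the groups did not overlap and each pair was lower (-0.72, -0.92 and -1.08). Without the block the adjusted p was 0.0992 for PARP1 and 0.215 for XRCC1. PARP2 (10038), the partner of PARP1 in single-strand break repair, changed by 0.33 (SE 0.12, adjusted p = 0.153). TDP1 (55775), which frees topoisomerase 1 stuck to DNA ends, changed by -0.01 (95% interval -0.32 to 0.30).

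Promoter letters are shown for UNG, EXO1, GEN1 and MSH6, the members that rose and held the E2F-type letters named below. PMS2 is shown as a member that held them and did not pass the test. The other members that rose held none of these letters. RefSeq windows of GRCh38.p14 from 250 bases before to 50 after each gene start were searched on both strands for the E2F-type letters TTTCCCGC, TTTCGCGC, TTTGCCGC and TTTGGCGC. E2F factors drive genes of S phase. In the lines below, capitals mark the match, and positions count from 1 at the first base of the gene and from -1 at the base before it. UNG is on the + strand at chr12:109098052-109098171, EXO1 on + at chr1:241848197-241848226, GEN1 on + at chr2:17753859-17753888, MSH6 on + at chr2:47783137-47783166, and PMS2, which did not pass the test, on the - strand at chr7:6009050-6009169.
UNG: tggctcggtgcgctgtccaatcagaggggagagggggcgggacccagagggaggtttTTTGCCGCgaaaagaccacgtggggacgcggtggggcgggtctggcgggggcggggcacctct
EXO1: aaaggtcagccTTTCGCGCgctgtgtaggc
GEN1: cagttgcggggTTTCGCGCcgccggagtct
MSH6: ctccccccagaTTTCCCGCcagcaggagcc
PMS2: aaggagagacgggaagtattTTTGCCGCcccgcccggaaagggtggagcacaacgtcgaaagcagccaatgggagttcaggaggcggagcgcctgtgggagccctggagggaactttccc
The match began at -63 in UNG, at 5 in EXO1, at 2 in GEN1, at 4 in MSH6 and at -100 in PMS2. E2F-type letters were found for 4 of the 11 genes that rose, for none of the 3 that fell and for 2 (PMS2 and XRCC2) of 22 others with a window, against 3.99% of 27305 genes in the RefSeq table. The CHR letters TTTGAA, known from genes of mitosis, were found for 3 of the 11, 1 of the 3 and 3 of the 22, against 18.2% of all genes. The letters CCAAT were found for 8 of the 11, 2 of the 3 and 11 of the 22, against 39.7%. A gene with several starts had more chances to match, so matches were also counted per window. CCAAT was in 53.6% of windows of the 22 others and in a smaller share for genes that rose, against 34.6% of all windows. CHR letters were about as frequent in windows of genes that rose as in all windows (15.2%). E2F-type letters were still more frequent in windows of genes that rose than in those of the others (10.7%) or all windows (3.31%). A match is a description of letters, not a site shown to be bound.

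Mismatch repair was represented by MSH6 and PMS2. MSH6 (2956), which takes part in recognising single mispaired bases, read 6.78, 6.92 and 6.41 after decitabine, against 6.20, 5.88 and 5.33 in untreated cells. The groups did not overlap, and the change was 0.90 (SE 0.15), a 1.87-fold rise (limma adjusted p = 0.0168, and 0.159 without the block). PMS2 (5395), which acts in the step that nicks DNA after recognition, moved in both directions, with pairs at 0.29, -0.45 and -0.70 and a change of -0.29 (SE 0.21, adjusted p = 0.435).

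**Figure D2:**
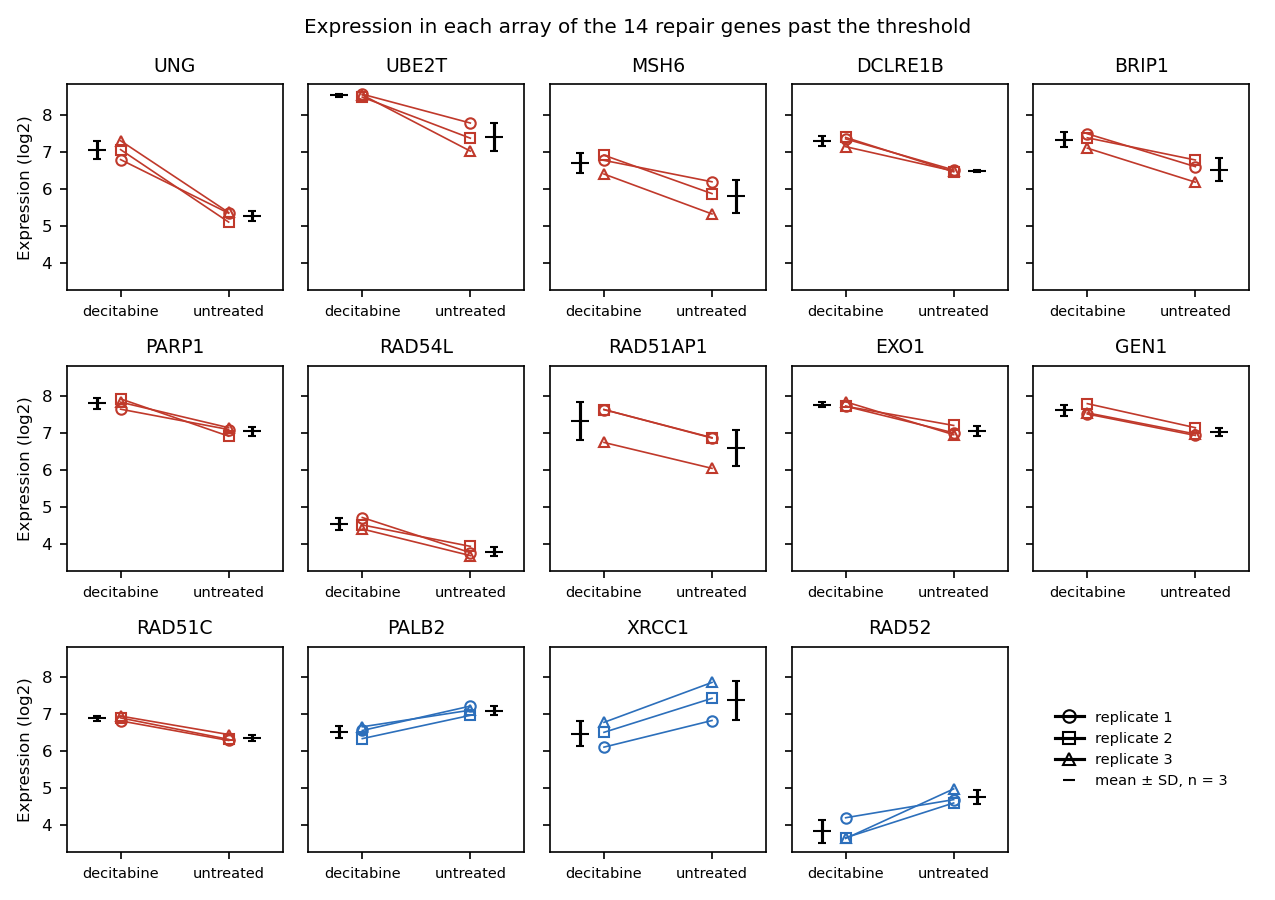
Log2 expression in each array of the 14 repair genes that passed the test, decitabine on the left and untreated on the right, with lines joining same-numbered arrays and bars for mean ± SD (n = 3). The lines of RAD51AP1 run in parallel at different heights, while the UNG values stand apart, at 6.80 to 7.31 with decitabine and 5.11 to 5.37 without.

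The checkpoint kinases themselves did not pass the test. ATR (545), the kinase that senses single-stranded DNA at stalled forks, read 6.85, 6.84 and 7.02 after decitabine, against 6.95, 7.05 and 7.18 in untreated cells, a change of -0.16 (95% interval -0.45 to 0.14, limma adjusted p = 0.457). Its partner ATRIP (84126), which brings ATR to that DNA, changed by 0.01 (-0.31 to 0.33). CHEK1 (1111), the kinase that ATR switches on, read 7.19, 7.35 and 7.29 after decitabine, against 6.90, 6.95 and 6.75 in untreated cells. CHEK1 was higher in all pairs and its groups did not overlap, but at 0.41 (95% interval 0.10 to 0.72) its adjusted p was 0.0902. CHEK2 (11200), the kinase downstream of ATM, read 4.51, 4.73 and 4.74 after decitabine, against 4.78, 4.77 and 4.52 in untreated cells, with overlapping groups and a change of -0.03 (95% interval -0.38 to 0.32). The dimmer of its 2 features gave 0.18.

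Neither measured gene of the chromatin response at breaks passed the test. TP53BP1 (7158), which shields broken ends from resection, read 5.49, 5.23 and 5.62 after decitabine, against 5.22, 5.38 and 5.72 in untreated cells, a change of 0.01 (95% interval -0.34 to 0.35). MDC1 (9656), the scaffold that reads phosphorylated H2AX, changed by -0.05 (95% interval -0.35 to 0.25). Its 8 features gave changes of -0.07 to -0.05.

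Among genes that cut back broken ends, EXO1 (9156), the exonuclease of long-range resection, rose. EXO1 read 7.73, 7.73 and 7.85 after decitabine, against 7.01, 7.21 and 6.96 in untreated cells, a change of 0.71 (SE 0.13, limma adjusted p = 0.0236, and 0.106 without the block). The 3 subunits of the complex that first binds the ends did not pass. The nuclease MRE11 (4361) changed by -0.02 (95% interval -0.34 to 0.29), the bridging ATPase RAD50 (10111) by -0.43 (SE 0.13, adjusted p = 0.0916) and NBN (4683), which docks ATM, by -0.54 (SE 0.15, adjusted p = 0.0727). RAD50 and NBN were lower in each pair, without overlap of the groups.

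Homologous recombination held the most members, 10 measured, of which 4 rose and 2 fell, against 7.79% and 5.37% of all genes. BRIP1 (83990), a helicase that binds BRCA1, read 7.50, 7.39 and 7.11 after decitabine, against 6.61, 6.79 and 6.19 in untreated cells, a change of 0.80 (SE 0.13, limma adjusted p = 0.0163). RAD54L (8438), a motor protein that helps homologous strands pair, read 4.72, 4.52 and 4.41 after decitabine, against 3.77, 3.94 and 3.69 in untreated cells, a change of 0.75 (SE 0.13, adjusted p = 0.0202). Both genes had groups that did not overlap, and without the block the adjusted p was 0.136 for BRIP1 and 0.103 for RAD54L.

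RAD51AP1 (10635), which stimulates strand pairing, shows what the pairing adds. It read 7.64, 7.64 and 6.75 after decitabine, against 6.88, 6.87 and 6.05 in untreated cells. Both arrays of replicate 3 were low, so the groups overlapped, yet the pairs rose by 0.76, 0.77 and 0.70. The limma adjusted p was 0.0147 with the block (SE 0.12) and 0.394 without it (SE 0.34). RAD51C (5889), which acts in strand exchange, read 6.82, 6.90 and 6.95 after decitabine, against 6.29, 6.32 and 6.45 in untreated cells, a change of 0.54 (SE 0.12, adjusted p = 0.0376, and 0.223 without the block). XRCC2 (7516) and XRCC3 (7517), which act at the same stage, changed by 0.52 (SE 0.15, adjusted p = 0.0804) and 0.12 (SE 0.13, adjusted p = 0.584).

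The 2 recombination genes that fell were PALB2 and RAD52. PALB2 (79728), which joins BRCA1 to BRCA2, read 6.56, 6.34 and 6.66 after decitabine, against 7.22, 6.97 and 7.11 in untreated cells, a change of -0.58 (SE 0.12, limma adjusted p = 0.0341). RAD52 (5893), which anneals complementary strands, read 4.20, 3.66 and 3.64 after decitabine, against 4.69, 4.60 and 4.98 in untreated cells, a change of -0.92 (SE 0.18, adjusted p = 0.0284). Decitabine values were below every untreated value for both genes, and without the block the adjusted p was 0.218 for PALB2 and 0.0915 for RAD52. BARD1 (580), the ubiquitin ligase partner of BRCA1, changed by 0.30 (SE 0.13, adjusted p = 0.195), and RAD54B (25788), a relative of RAD54L, by 0.14 (SE 0.13, adjusted p = 0.553).

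In crosslink repair, 2 of 5 measured genes rose, against 7.79% of all genes. UBE2T (29089), the conjugating enzyme that places ubiquitin on FANCD2 and FANCI, read 8.57, 8.49 and 8.55 after decitabine, against 7.79, 7.38 and 7.03 in untreated cells. The decitabine values were close together and the untreated ones spread, and the change was 1.14 (SE 0.17), a 2.20-fold rise (limma adjusted p = 0.0125, and 0.0490 without the block). USP1 (7398), the enzyme that takes this ubiquitin off again, changed by -0.06 (95% interval -0.36 to 0.24).

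DCLRE1B (64858), the nuclease Apollo of telomere ends and crosslink repair, read 7.36, 7.40 and 7.15 after decitabine, against 6.52, 6.47 and 6.49 in untreated cells. The groups did not overlap, and the change was 0.81 (SE 0.13, limma adjusted p = 0.0139, and 0.0679 without the block). The nuclease DCLRE1A (9937) of the same family changed by -0.28 (SE 0.15, adjusted p = 0.284). FAN1 (22909), a nuclease recruited by ubiquitinated FANCD2, changed by -0.49 (SE 0.15, adjusted p = 0.0966) and was lower in each pair.

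Junction nucleases resolve the branched DNA that recombination leaves. GEN1 (348654), a resolvase of four-way junctions, read 7.52, 7.80 and 7.55 after decitabine, against 6.94, 7.15 and 6.98 in untreated cells, a rise of 0.60 (SE 0.12, limma adjusted p = 0.0276, and 0.192 without the block). The catalytic subunit MUS81 (80198) changed by 0.00 (95% interval -0.35 to 0.35), while its partner EME1 (146956) changed by 0.46 (SE 0.13, adjusted p = 0.0670) and was higher in each pair. The other feature of EME1 gave 0.62 and passed when the 16098 features with a gene symbol were tested (limma adjusted p = 0.0435, against 0.0707 for the brighter one). Over all 48226 features the adjusted p of the brighter one was 0.131. The mean of both features passed in a fit of genes (adjusted p = 0.0414). The scaffold SLX4 (84464) changed by -0.20 (SE 0.13, adjusted p = 0.370). RAD18 (56852), the ubiquitin ligase that marks PCNA for lesion bypass, changed by 0.18 (SE 0.12, adjusted p = 0.385).

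Most other genes of these pathways did not pass the test, and more of them rose than fell. Of 134 further repair genes listed by name, 74 were measured, of which 14 rose and 3 fell, with a median change of 0.12. These are 18.9% and 4.05%, against 7.79% and 5.37% of all genes, so the share that fell was near the background. Without the block 4 rose (GCNA, CLSPN, DNA2 and HLTF) and 0 fell, against 2.01% and 1.02% of all genes. GCNA (93953), a protease-like protein of germ cells linked to the repair of DNA-protein adducts, averaged 7.10 ± 0.23 after decitabine and 2.55 ± 0.14 in untreated cells (SD, n = 3 each), a rise of 4.56 (SE 0.17, limma adjusted p = 2.61e-04). CLSPN (63967), the adaptor through which ATR activates CHEK1, averaged 7.05 ± 0.14 after decitabine and 4.93 ± 0.12 in untreated cells (SD, n = 3 each), a rise of 2.13 (SE 0.12, adjusted p = 9.42e-04). HLTF, a ligase and motor protein of stalled forks, rose by 1.70, the helicase-nuclease DNA2 by 1.33 and HMCES, a sensor of abasic sites in single-stranded DNA, by 1.29. The largest fall that passed was that of PRIMPOL, the primase that restarts stalled forks, at -0.96 (SE 0.14, adjusted p = 0.0109). Without the block the adjusted p was 0.0556 for HMCES and 0.0610 for PRIMPOL.

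Checkpoint genes that act with ATR and CHEK1 were among those that rose. Of 13 measured, 6 rose and none fell, against 7.79% and 5.37% of all genes, and the median change of the 13 was 0.51. Without the block CLSPN alone of the 6 passed, and the limma adjusted p of the other 5 was 0.0868 (TOPBP1) to 0.258 (TIMELESS). Besides CLSPN the genes that rose were TOPBP1, the activator of ATR, at 0.85, RAD1 of the checkpoint clamp at 0.69, TIPIN at 0.66 and TIMELESS at 0.51, which together protect forks, and WEE1, the kinase that restrains CDK1, at 0.61. All 3 measured genes of nucleotide excision repair (UVSSA, RAD23B and XAB2) had changes below 0 (-0.38 to -0.24) and none passed. None of 4 measured genes of end joining passed, with changes of -0.20 (XRCC4) to 0.47 (XRCC6). Of 22 p53 targets listed, 13 lacked a named feature and 9 were measured, so most of that list was not seen. SESN1 rose by 0.52 (SE 0.12, adjusted p = 0.0422), PLK3 changed by -0.77 (SE 0.14, adjusted p = 0.0214) and the other 7 did not pass. Without the block the adjusted p was 0.256 for SESN1 and 0.130 for PLK3.

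Genes of DNA replication moved beside the repair genes. The S phase list had 27 measured genes, of which 21 rose and 1 fell (median change 1.15), and the mitosis list 19, of which 9 rose and 0 fell (median 0.47). The shares over all 14884 genes were 7.79% and 5.37%. Without the block 15 S phase genes rose and 1 fell, and 2 mitosis genes rose and 0 fell. The shares over all genes were then 2.01% and 1.02%. CCNE2, a cyclin of S phase entry, rose by 2.56 (SE 0.13, limma adjusted p = 6.32e-04) and the fork clamp PCNA by 1.72 (SE 0.16, adjusted p = 0.00319). The single fall was that of the repressor E2F7 at -1.45 (SE 0.14, adjusted p = 0.00351). E2F8 of the same list moved the other way, with a rise of 2.35 (SE 0.15, adjusted p = 0.00110). The effect of these changes on E2F activity was not tested. The mean level of the 27 S phase genes was 6.99, 7.03 and 7.05 in the 3 decitabine arrays, against 6.01, 5.82 and 5.65 in untreated arrays. A larger share of cells in S phase and more RNA per cell cannot be told apart in these bulk samples, and the part of S phase in the changes of the repair genes was not tested.

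**Figure D3:**
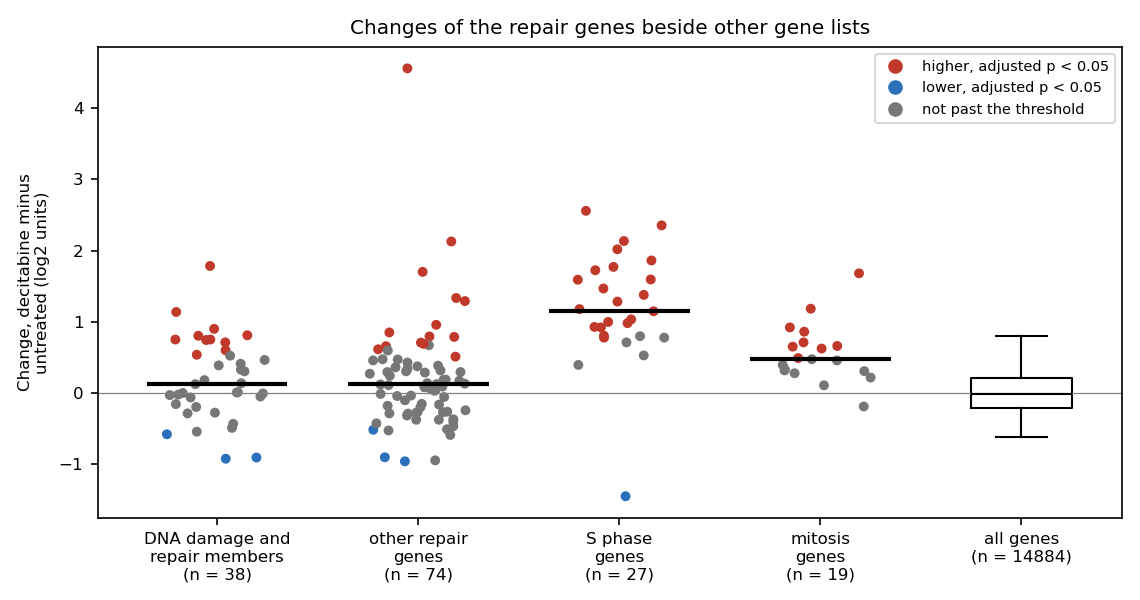
Changes on the log2 scale, decitabine minus untreated, of the 38 repair genes, 74 other repair genes, 27 S phase genes and 19 mitosis genes, one point per gene with thick lines at the medians of 0.13, 0.12, 1.15 and 0.47. The box for all 14884 genes spans the quartiles with whiskers at the 5th and 95th percentiles, and the repair genes spread around 0 while most S phase genes lie above it.

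The pairing decided most calls. Of the 14 repair genes that passed with the replicate block, 12 missed the threshold without it, while the fitted changes were the same. With any pair left out of the block fit of the values as deposited, none of the 38 passed limma's adjusted threshold, nor did any of the 14884 genes, and 15 to 21 of the 38 had an unadjusted p under 0.05. With the arrays centred on their medians, a fit chosen after seeing the data, 6 repair genes rose and 2 fell without replicate 1. In that fit 725 of the 14884 genes rose and 687 fell, so the share of repair genes that fell was near the background. All 14 genes kept their direction in each of these fits.

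**Figure D4:**
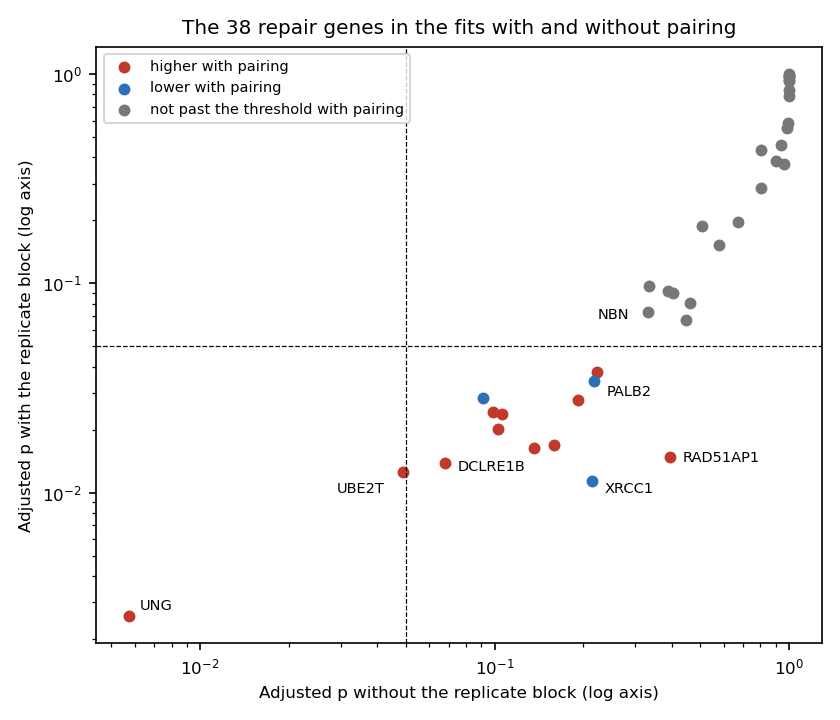
Adjusted p of each of the 38 repair genes without the replicate block (horizontal, log axis) and with it (vertical, log axis), with dashed lines at 0.05. UNG and UBE2T lie below the threshold on both axes, and RAD51AP1, at 0.394 and 0.0147, lies farthest to the right among the 14 genes that passed with pairing.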

How the data were processed

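Expression was measured on 6 arrays. The submitters' processing notes name the Transcriptome Analysis Console as the authors' software. The deposited values were read as log2 values because they run from 0.17 to 12.89 with 2 decimals. Log base, normalization, background correction and build: not given in the sources used here. Of 48226 features, 16098 had 1 gene symbol, none had several and 32128 had none. The Entrez Gene IDs of the named features all matched the RefSeq table of GRCh38.p14, whose current symbols were used, giving 14884 genes.

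The fit used limma 3.58.1 (lmFit, eBayes) in R 4.3.3, two-sided, with the replicate number as a block and p-values adjusted over the 14884 genes. It was also run on simulated data, whose outcome is not given here, and no result above rests on that run. Same-numbered arrays deviated together from their group means (correlations of 0.558 to 0.682, against -0.483 to -0.00622 for other pairs of arrays), and the numbers come from the titles. Values were identical between same-numbered arrays at 6.44% to 8.28% of features, against 0.417% to 0.834% elsewhere.

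The members and gene lists were chosen with earlier results of these data known. Values in every array are given for members that passed with a log2 change of at least 1 and, whatever their values, for ATR, CHEK1, CHEK2, PARP1 and TP53BP1. The other members that passed were added after their values were seen. From the other lists, up to 6 of the largest changes that passed are named, and further genes after their values were seen. Promoter sequences are from RefSeq (GRCh38.p14), and 36 of 38 members had one. The alternatives tried were no block, quantile normalization, median centring, leaving out the dimmer 50% of genes, averaging a gene's features, testing all features, a trended prior and leaving out each pair. The number of arrays limits the precision.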

Additional observations from a re-analysis of the deposited data

How the results depend on the processing

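The fitted rises and falls of the 14 called genes kept their direction in all alternatives. Without the replicate block 2 members rose and 0 fell (15 with an unadjusted limma p under 0.05), against 11 and 3 with it, and 299 genes rose and 152 fell, against 1159 and 800. The falls among members numbered 6 in a fit of the brighter 50% of genes, 5 with a trended prior and 1 over all features. CHEK1, FAN1, EME1, RAD50, XRCC2 and NBN passed without the dimmer genes (adjusted p of 0.0270 to 0.0455). With a trended prior CHEK1, RAD50, XRCC2 and NBN passed (0.0113 to 0.0286), FAN1 passed with quantile normalization (0.0453) and EME1 with the mean of its features (0.0414), while RAD52, PALB2, RAD51C and GEN1 missed the threshold over all features. Quantile normalization, median centring and the mean of a gene's features gave 11 to 12 rises and 3 to 4 falls. Leaving out pairs, including 2 fits without replicate 1 chosen after seeing the data (with median centring, or with no block), gave 0 to 6 rises and 0 to 2 falls among members, a median change of 0.08 to 0.18, and 0 to 725 rises and 0 to 687 falls among all genes (245 and 143 with no block without replicate 1). With a pair left out the block leaves 1 residual degree of freedom per gene, and 2449 to 3514 genes still had an unadjusted p under 0.05. Genes near 0 changed sign. ATRIP was -0.00278 and TP53BP1 -0.0244 with quantile normalization, and CHEK2 was 0.0733 with the mean of its features. With pairs left out ATRIP was -0.105 to 0.105 (-0.075 without replicate 1), CHEK2 -0.155 to 0.09, MDC1 -0.125 to 0.015, MRE11 -0.095 to 0.06, TP53BP1 -0.155 to 0.085 and TDP1 -0.045 to 0.07 (0.04 with median centring without replicate 1).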
